A study of Mus musculus with 28 samples.

Results

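The genes described here are 34 mouse genes of fatty acid oxidation and ketogenesis and targets of the receptor PPARA, chosen from a list of gene symbols and read from array probes whose RefSeq accession belongs to those genes. All 34 of 34 were on the array, which measured 37208 genes and transcripts, and 45 probes carried them. They comprise the receptor Ppara itself, 16 genes of mitochondrial oxidation, ketogenesis and fuel choice, 6 peroxisomal genes, 2 microsomal P450 genes, 4 acyl-CoA thioesterases, and 5 genes of fatty acid binding, activation and storage or PPARA targets outside oxidation.

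Phenobarbital (PB), a barbiturate drug and a classical activator of the nuclear receptor CAR, was mixed into the diet of male mice in 3 separate experiments, and total liver RNA was measured with 1 array per animal. Outbred CD-1 mice had 0 or 1500 ppm in their food over 7 days (4 animals a group). hCAR/hPXR mice, which carry the human receptors CAR and PXR in place of their own, received 0 or 1000 ppm over 7 days (7 animals a group), and the labels do not name the promoter behind the human genes. Mice of the strain C3H/HeNCrlCrlj (C3H from here on) had 0 or 500 ppm over 27 weeks (3 animals a group) after 1 injection of the liver carcinogen diethylnitrosamine at 90 mg/kg, which their controls received too. The labels give no ages and do not say if C3H livers were sampled from a tumour or beside one. Strain, dose, duration and carcinogen differ together between the experiments, so their parts in any difference between strains cannot be told apart.

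In the liver, long-chain fatty acids are activated to acyl-CoA esters, carried into mitochondria by the carnitine shuttle, and cut down by successive rounds of beta-oxidation, with part of the product released as ketone bodies during fasting. Very long chains are shortened in peroxisomes, and P450 enzymes of the CYP4A family oxidise the far end of the chain in microsomes. PPARA is a nuclear receptor that fatty acids activate and that, paired with RXR, switches on genes at each of these steps.

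Levels are log2 processed signals relative to the 75th percentile of each array, and changes are PB minus control on that scale, with the standard error (SE) of a fit across all tested genes. A gene was called when its Benjamini-Hochberg adjusted p in limma, over all tested genes, was below 0.05. The inducible P450 gene Cyp2b10, a standard sign of CAR activation, rose by 6.66 ± 0.47 (SE) in CD-1, 4.49 ± 0.20 in hCAR/hPXR and 5.74 ± 0.25 in C3H livers. All 12 hepatocyte markers were well above background on every array of each group. The CD-1 arrays were compressed at the bright end: the 99th percentile of the signal lay 5.40 to 6.71 log2 units above the 75th percentile, against 7.48 to 7.92 on hCAR/hPXR and 7.99 to 8.30 on C3H arrays. Among them PB animal 1 was lowest (5.40), followed by control animal 2 (5.78), and control animal 1 was highest (6.71). These are the lowest PB animal for 28, the lowest control for 30 and the highest control for 21 of the 34 genes. The scanner's median coefficient of variation between replicate spots of a probe was 13.2% to 14.3% on CD-1 control and 21.1% to 25.3% on CD-1 PB arrays. The part of both in the CD-1 results was not tested. The CD-1 controls and the CD-1 PB animals were on separate slides, so slide and PB cannot be told apart there. The hCAR/hPXR controls shared slide 3 with PB animal 1 only, the other 6 PB animals lay on slide 4, and all C3H arrays lay on slide 5.

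The calls in this gene set were not the same in the 3 experiments. In CD-1 livers 32 of the 34 genes could be tested, 29 of the 32 changes were below 0, and Ppara and Ech1 fell. In hCAR/hPXR livers 8 of 34 rose and 2 fell, all by less than 1 log2 unit, but with quantile normalization the calls were 5 higher and 7 lower, and with normexp background correction and quantile normalization 5 higher and 10 lower. In C3H livers the thioesterase genes Acot2, Acot3 and Acot4 and the pantetheinase gene Vnn1 rose, Acsl1 fell, and the 16 mitochondrial genes included no call. Acot2, Acot3 and Vnn1 were well above background on 1, 2 and 1 of the 3 C3H control arrays and were tested only because every PB array was above it. When both groups had to be above background, 3 C3H members were called, 2 higher and 1 lower.

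These counts stand beside the share of all tested genes that was called. In CD-1 mice 0 of 32 members were higher against 1.85% of 23824 tested genes, and 2 of 32 were lower against 6.13%. In hCAR/hPXR mice the counts were 8 of 34 higher against 35% of 20037 genes and 2 of 34 lower against 23.2%, so neither count exceeded the background. In C3H mice 4 of 34 were higher against 7.38% of 18271 genes and 1 of 34 was lower against 7.3%. The CD-1 and C3H counts thus stood near the background too. The called members were not the same in each strain, but groups of 4, 7 and 3 animals differ in what they can call. A call in 1 strain and none in another is therefore not itself a difference. At an unadjusted p below 0.05, a threshold added after seeing the data, limma gave 0 higher and 19 lower members in CD-1 mice, against 10.6% and 16.5% of all tested genes. It gave 10 and 2 in hCAR/hPXR mice, against 38.1% and 24.7%, and 9 and 4 in C3H mice, against 14.5% and 20.9%. Among all called CD-1 genes 23.2% were higher, against 33.7% after quantile normalization and 39.5% after normexp background correction and quantile normalization. The median change of the tested members was -0.89 in CD-1 mice, where that of all tested genes was -0.04. The corresponding medians were 0.13 and 0.13 in hCAR/hPXR and 0.00 and -0.05 in C3H mice. The hCAR/hPXR median of the members turned to -0.11 with quantile normalization and to -0.15 with normexp and quantile normalization. With the slide as a block, the hCAR/hPXR change equals PB animal 1 minus the control mean, so the PB arm is 1 animal. The 10 called members kept their direction in that fit and none their call. The 1 member it called was Acadl (-1.07, adjusted p = 0.0206 in limma), for which that animal stood apart from the other PB animals (2.36). The groups did not overlap for 9 of 32 members in CD-1 (18.6% of all tested genes), for 2 of 34 in hCAR/hPXR (20.5%) and for 16 of 34 in C3H mice (41.6%). Of the 34 genes 20 were called in no strain, 14 in at least 1, 3 in 2 strains (Ppara, Acot4 and Vnn1) and 0 in all 3.

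**Figure D1:**
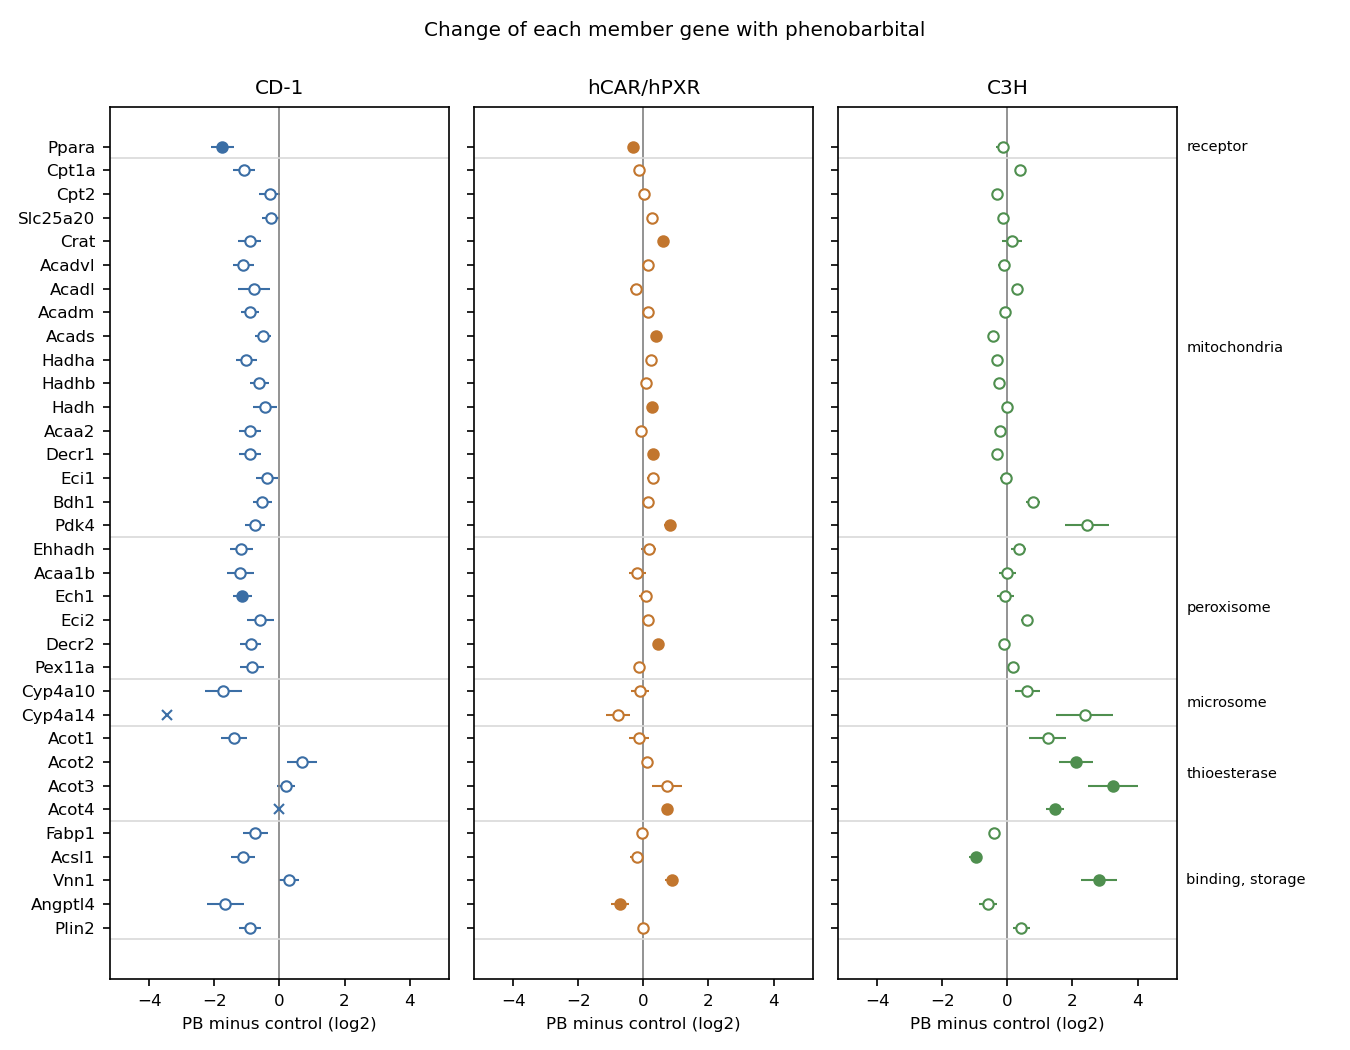
PB minus control (log2, horizontal axis) for each of the 34 genes in the 3 strains, ordered by role. Points are fitted changes with their SE, filled points were called at an adjusted p below 0.05, and crosses mark genes that were not tested. In CD-1 mice 29 of the 32 tested changes lie left of 0, in hCAR/hPXR mice all 34 lie within 1 log2 unit of 0, and in C3H mice the thioesterases, Vnn1, Pdk4 and Cyp4a14 lie farthest right.

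**Figure D2:**
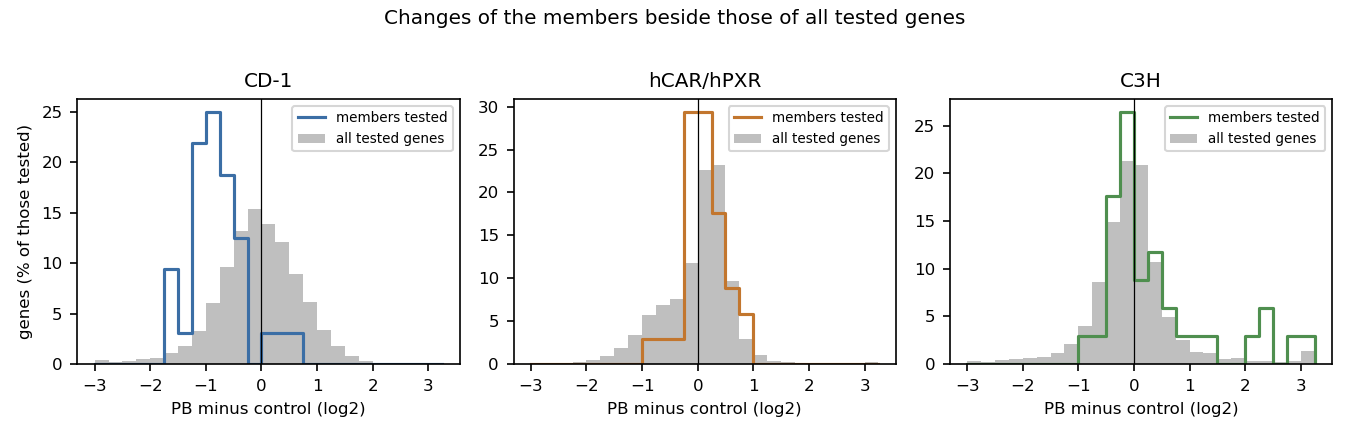
Distribution of the change (PB minus control, log2, in bins of 0.25 with the end bins holding all values beyond them) for the tested members (line) and for all tested genes (grey bars), as a percentage of each. The CD-1 members sit to the left of all genes (medians -0.89 and -0.04). The medians of members and all genes are 0.13 and 0.13 in hCAR/hPXR and 0.00 and -0.05 in C3H mice.

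Ppara, on chromosome 15 (85734910 to 85806851, GRCm38.p6), encodes the receptor itself. In CD-1 mice its log2 level was 4.30, 3.34, 4.43 and 3.66 in control animals 1 to 4 and 1.31, 2.38, 2.52 and 2.53 in PB animals 1 to 4. Every PB animal lay below every control, and PB animal 1 was lowest. The change was -1.75 ± 0.35 (SE, n = 4 and 4, adjusted p = 0.0102 in limma), a 3.36-fold lower level. The other pair of Ppara probes gave changes of -1.52 and -1.40 and did not overlap between the groups either. The call was kept without each of the 8 animals in turn, with adjusted p at most 0.0426.

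In hCAR/hPXR controls the Ppara level ran from 5.03 through a median of 5.45 to 5.65, and in PB animals from 4.82 through 5.12 to 5.21. The PB range was low and narrow and overlapped the lower part of the control range. The fall was small, with a change of -0.31 ± 0.11 (n = 7 and 7, adjusted p = 0.0273 in limma), and the remaining probes gave -0.49 and -0.67. With the slide as a block the change was -0.56 (adjusted p = 0.226 in limma). The call was also lost without control animal 5, 6 or 7 or PB animal 1, with adjusted p up to 0.0602.

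In C3H mice Ppara was at 5.81, 6.30 and 6.20 in controls and 6.25, 5.86 and 5.77 in PB animals. The groups overlapped, and the change of -0.14 ± 0.19 (95% interval -0.61 to 0.32, adjusted p = 0.634 in limma) was not called. The C3H change was above the CD-1 change by 1.61 ± 0.37 (adjusted p = 0.00508 in limma), and the hCAR/hPXR change was above it by 1.44 ± 0.31 (adjusted p = 0.00150).

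Among the mitochondrial genes, those of the carnitine shuttle bring long acyl chains across the membranes: Cpt1a is the outer, rate-limiting carnitine palmitoyltransferase, Slc25a20 the carnitine carrier, Cpt2 the inner transferase and Crat the transferase for short chains. Cpt1a in CD-1 mice was at 1.23, 0.45, 1.56 and 0.99 in controls and -0.78, -0.12, 0.50 and 0.27 in PB animals. The groups overlapped only through control animal 2 and PB animal 3. The change of -1.09 ± 0.34 missed the threshold (adjusted p = 0.0681 in limma).

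Cpt1a in hCAR/hPXR mice ranged from 4.25 through a median of 4.79 to 4.92 in controls and from 4.43 through 4.54 to 4.75 in PB animals, with a change of -0.13 ± 0.11. The PB range lay inside the control range. In C3H mice it was at 5.30, 5.24 and 5.31 in controls and 5.71, 5.61 and 5.71 in PB animals, a change of 0.39 ± 0.11. These C3H groups did not overlap and hardly varied within themselves, but the adjusted p was 0.0604 in limma. The difference between the C3H and CD-1 changes passed the test (1.48 ± 0.34, adjusted p = 0.00469 in limma), as did that between hCAR/hPXR and CD-1 (0.96 ± 0.28, adjusted p = 0.0126). The second Cpt1a probe, well above background on every array, gave -0.12 in CD-1, -0.12 in hCAR/hPXR and 0.19 in C3H mice. It thus showed neither the CD-1 change of the main probe nor a difference between hCAR/hPXR and CD-1.

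Crat rose in hCAR/hPXR mice by 0.59 ± 0.13 (adjusted p = 0.00126 in limma), with overlapping groups. Its changes in CD-1 and C3H mice were -0.91 ± 0.35 and 0.15 ± 0.31, and 1 of 4 CD-1 PB arrays was well above background, so the CD-1 PB level was mostly at background. Cpt2 had changes of -0.30 in CD-1, 0.02 in hCAR/hPXR and -0.30 in C3H mice, and Slc25a20 of -0.27, 0.26 and -0.14, with no call for either.

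The acyl-CoA dehydrogenases take the first step of each round, each for its own chain length. In CD-1 mice the changes were -1.10 ± 0.33 for Acadvl (very long chains, adjusted p = 0.0572 in limma), -0.79 ± 0.49 for Acadl (long), -0.90 ± 0.27 for Acadm (medium, adjusted p = 0.0591) and -0.51 ± 0.25 for Acads (short). The groups did not overlap for Acadvl, Acadm and Acads, and none was called. Acads rose in hCAR/hPXR mice by 0.40 ± 0.14 (adjusted p = 0.0265 in limma) from a mean of 2.21 ± 0.39 (SD) to 2.61 ± 0.08, a call lost with quantile normalization and without control animal 4 (adjusted p = 0.0571). Acads in C3H mice had a change of -0.44 ± 0.15 with no overlap (adjusted p = 0.0928 in limma). That is 0.84 ± 0.25 below the hCAR/hPXR change, a difference that passed the test (adjusted p = 0.0306).

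The later steps are run by the trifunctional protein, whose subunits are Hadha and Hadhb, by the shorter-chain dehydrogenase Hadh, by the thiolase Acaa2 and, for unsaturated chains, by the auxiliary enzymes Decr1 and Eci1. In CD-1 mice these 6 genes had changes of -0.37 (Eci1) to -1.01 (Hadha), and none was called. Hadh and Decr1 rose in hCAR/hPXR mice, by 0.27 ± 0.07 (adjusted p = 0.00344 in limma) and 0.30 ± 0.11 (adjusted p = 0.0246). With quantile normalization neither was called, and Decr1 also lost its call without PB animal 4 or 6 (adjusted p up to 0.0542). Hadh was at 5.31 to 5.62 (median 5.53) in those controls and 5.67 to 5.90 (median 5.74) in PB animals. It was 1 of the 2 members whose hCAR/hPXR groups did not overlap. In C3H mice Hadh had a mean of 6.18 in both groups and the other 5 had changes of -0.05 (Eci1) to -0.33 (Hadha), and Hadha and Hadhb did not overlap between the groups.

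Bdh1, the dehydrogenase that makes the ketone body beta-hydroxybutyrate, was at 4.42, 3.60, 4.05 and 4.03 in CD-1 controls and 3.05, 3.80, 3.83 and 3.30 in CD-1 PB animals. The groups overlapped, with a change of -0.53 ± 0.29. Its level in hCAR/hPXR mice ran from 5.09 through 6.02 to 6.35 in controls and from 5.64 through 6.20 to 6.30 in PB animals, with a change of 0.14 ± 0.17. In C3H mice it was at 6.77, 6.80 and 6.94 in controls against 7.20, 7.64 and 8.01 in PB animals. Each C3H PB animal was above each control. The change of 0.78 ± 0.22 missed the threshold (adjusted p = 0.0572 in limma), and the other Bdh1 probes gave 1.06 and 0.76, also without overlap. The C3H change exceeded the CD-1 change by 1.31 ± 0.36 (adjusted p = 0.0173 in limma).

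Pdk4 encodes the kinase that shuts off pyruvate dehydrogenase and so turns cells from glucose to fat. Its CD-1 levels were -0.85, -1.57, -1.29 and -1.25 in controls and -2.49, -2.07, -1.35 and -2.01 in PB animals, with PB animal 1 not well above background. The groups overlapped and the change was -0.74 ± 0.30 (adjusted p = 0.138 in limma). In hCAR/hPXR mice Pdk4 ran from 0.88 through 1.26 to 1.65 in controls and from 1.40 through 2.10 to 2.66 in PB animals. It rose by 0.81 ± 0.18 (adjusted p = 0.00162 in limma), with the lowest PB animals inside the control range.

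In C3H mice Pdk4 was at -0.12, 1.55 and 1.66 in controls and 2.29, 3.76 and 4.37 in PB animals. The groups did not overlap, and control animal 1 was low. The change of 2.44 ± 0.67 (95% interval 0.84 to 4.05) stayed above the threshold (adjusted p = 0.0563 in limma). It was larger than the CD-1 change by 3.18 ± 0.57 (adjusted p = 0.000497 in limma) and than the hCAR/hPXR change by 1.64 ± 0.51 (adjusted p = 0.0420).

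Of the 6 peroxisomal genes, Ehhadh (the bifunctional enzyme), Acaa1b (the thiolase), Ech1, Eci2 and Decr2 (auxiliary enzymes for unsaturated chains) and Pex11a (a membrane protein of peroxisome division), 6 of 6 changes were below 0 in CD-1 mice, with a median of -1.01. Ech1, on chromosome 7 (28825338 to 28832239), was at 2.80, 2.20, 2.91 and 2.54 in CD-1 controls and 0.98, 1.87, 1.80 and 1.23 in PB animals. All PB animals were below all controls. It fell by 1.14 on the log2 scale (SE 0.30, adjusted p = 0.0345 in limma), a call that held in 2 of the 8 fits that each leave out 1 animal. It was lost without control animals 1, 3 and 4 and without PB animals 1, 2 and 4, with adjusted p up to 0.114. Ehhadh and Acaa1b had changes of -1.17 ± 0.37 and -1.20 ± 0.41, also without overlap, and were not called (adjusted p = 0.0677 and 0.0883 in limma).

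Decr2 was the 1 peroxisomal gene called outside CD-1 mice, rising in hCAR/hPXR mice by 0.45 ± 0.09 (adjusted p = 0.000921 in limma). The remaining 5 lay between -0.18 (Acaa1b) and 0.16 (Ehhadh) there. In C3H mice Eci2 was at 6.85, 6.65 and 6.88 in controls and 7.13, 7.32 and 7.72 in PB animals, above every control, with a change of 0.60 ± 0.18 (adjusted p = 0.0713 in limma). Ehhadh differed between strains, by 1.33 ± 0.41 for hCAR/hPXR minus CD-1 (adjusted p = 0.0161 in limma) and 1.52 ± 0.49 for C3H minus CD-1 (adjusted p = 0.0388).

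Cyp4a10 and Cyp4a14 encode the omega-hydroxylases that classical peroxisome proliferators raise, and they lie close together on chromosome 4 (115518287 to 115533649 and 115486200 to 115496158). Both are close relatives of other Cyp4a genes, and whether a probe also bound a relative's RNA was not tested. In CD-1 mice Cyp4a10 was at 5.01, 1.89, 3.84 and 4.42 in controls and 1.33, 2.91, 1.64 and 2.39 in PB animals. Control animal 2 was far below the other controls and inside the PB range. The change was -1.72 ± 0.57 (adjusted p = 0.0811 in limma), and the other probes gave -2.05 and -1.15.

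Cyp4a14 in CD-1 mice was at 4.35, -3.73, 4.22 and 3.53 in controls and -2.34, 0.61, -2.69 and -0.96 in PB animals. Control animal 2 and PB animal 3 were not well above background, so the gene was not tested. The remaining 3 controls were all above all 4 PB animals. With all animals and no background filter the change was -3.44 (adjusted p = 0.230 in limma). Without control animal 2 the gene passed the filter through the controls alone, with a change of -5.38. Without PB animal 3 it passed through the PB animals alone, with -2.99. Both entries follow from the animal left out, so no test is drawn from them.

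Cyp4a10 in hCAR/hPXR mice ran from 4.70 through 5.18 to 6.33 in controls and from 4.40 through 5.06 to 6.11 in PB animals, which overlapped over most of their range. Cyp4a14 ran from 5.09 through 5.31 to 6.77 and from 3.41 through 5.11 to 5.61. Neither change was called (-0.10 ± 0.27 and -0.78 ± 0.37).

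In C3H mice Cyp4a10 was at 3.67, 3.91 and 4.20 in controls and 3.82, 4.42 and 5.38 in PB animals, a change of 0.61 ± 0.39 with overlap. Cyp4a14 was at -1.98, -0.62 and -1.13 in controls and -0.41, 0.71 and 3.11 in PB animals. Every PB animal was above every control and PB animal 3 stood highest, but the change of 2.38 ± 0.87 was not called (adjusted p = 0.108 in limma). The C3H change exceeded the CD-1 change for both genes, by 2.34 ± 0.76 for Cyp4a10 (adjusted p = 0.0382 in limma) and 5.82 ± 1.74 for Cyp4a14 (adjusted p = 0.0255). The Cyp4a14 difference includes the dim CD-1 control animal 2.

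**Figure D3:**
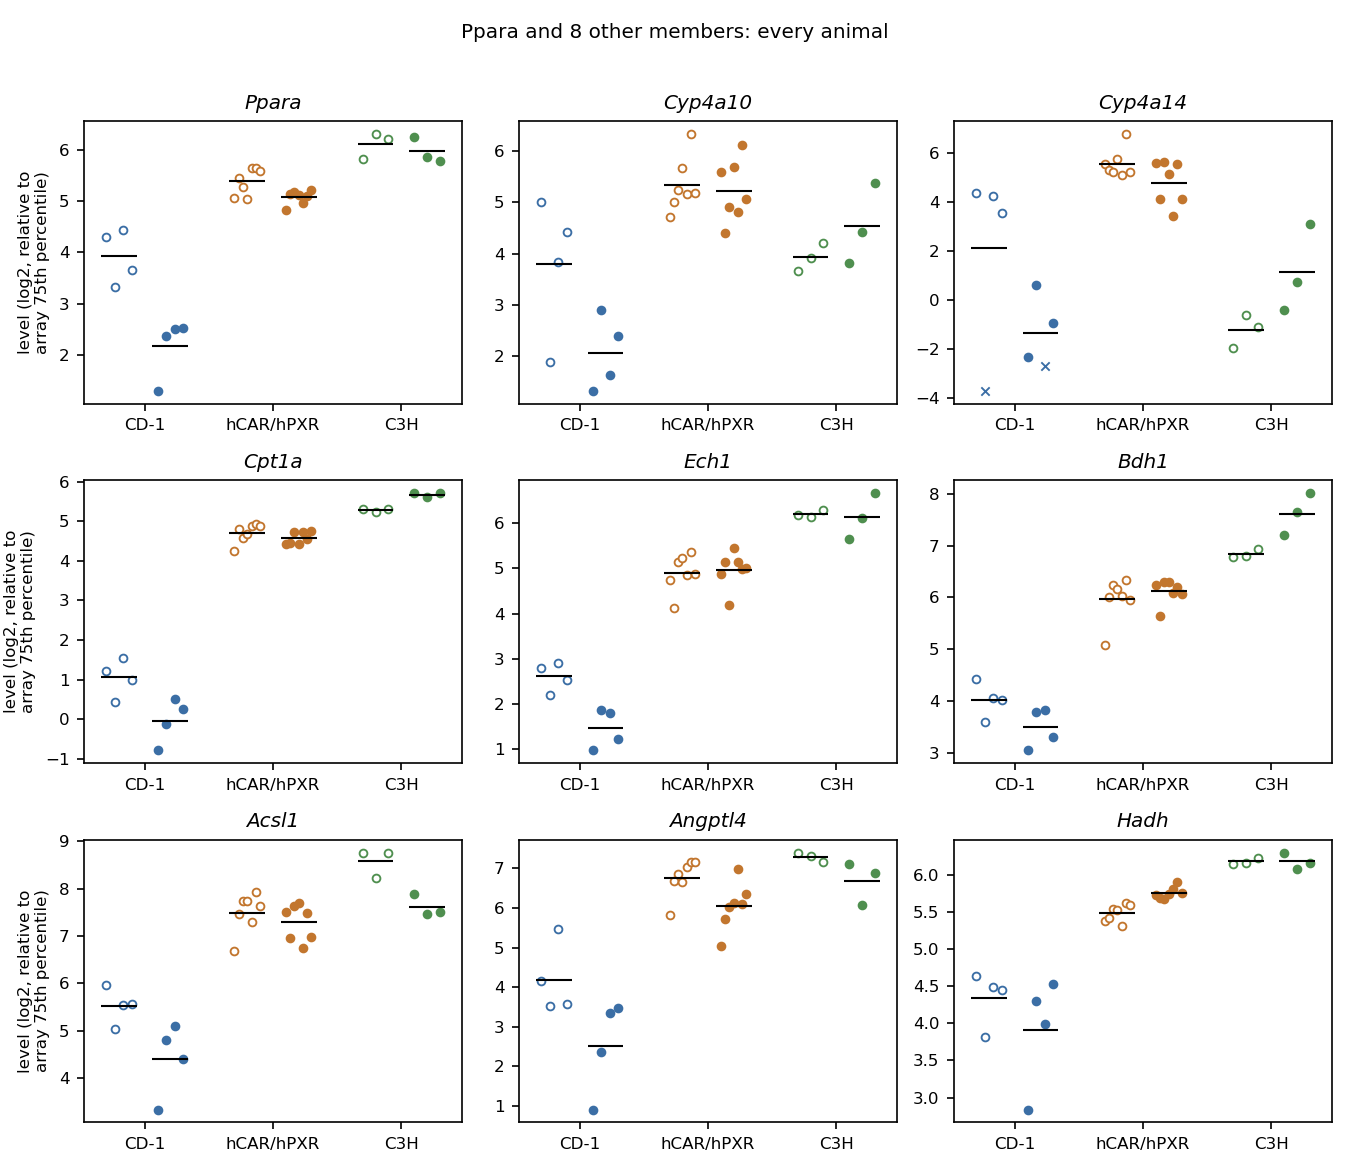
Log2 level in every animal (vertical axis, relative to the array's 75th percentile) for Ppara and 8 other members, by strain, with open points for controls, filled points for PB animals, crosses for arrays not well above background and bars for group means. The 4 CD-1 PB animals lie below the 4 controls for Ppara, Ech1 and, narrowly, Angptl4 (not called), and CD-1 control animal 2 lies at -3.73 for Cyp4a14.

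The acyl-CoA thioesterases split acyl-CoA into free fatty acid and coenzyme A: Acot1 in the cytosol, Acot2 in mitochondria, Acot3 and Acot4 in peroxisomes. Their genes stand side by side within 72.5 kb of chromosome 12 (83987861 to 84060400), all on the plus strand. They are close relatives, and whether a probe for 1 of them also bound another's RNA was not tested.

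In C3H mice Acot2 was at -3.87, -2.62 and -2.94 in controls and -1.60, -1.56 and 0.06 in PB animals. All PB animals were above all controls, and 1 of 3 control arrays was well above background. It rose by 2.11 ± 0.53 (n = 3 and 3, adjusted p = 0.0448 in limma), a value that rests on controls mostly at background. Acot3 was at -4.88, -2.54 and -2.13 in controls, 2 of 3 of them well above background, and at 0.04, -0.67 and 0.80 in PB animals. It rose by 3.24 ± 0.75 (adjusted p = 0.0382 in limma), again with no overlap, although control animal 1 was not well above background and the change was 2.40 without it. The second, dimmer Acot3 probe gave 1.63 with overlapping groups and was well above background on 0 of 3 control and 2 of 3 PB arrays.

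Acot4 was well above background on every C3H array, at 0.13, 0.52 and 0.59 in controls and 1.44, 1.75 and 2.45 in PB animals. The groups lay well apart, with a rise of 1.46 ± 0.28 (adjusted p = 0.0240 in limma), 2.76-fold. Acot1 was at 2.85, 3.08 and 3.78 in controls and 3.40, 4.39 and 5.62 in PB animals. PB animal 1 was inside the control range, and the change of 1.23 ± 0.56 was not called (adjusted p = 0.166 in limma). All 4 genes were highest in PB animal 3.

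These C3H calls rest on few animals. Without control animal 1 or 3, or without PB animal 2, limma called 0 of the 34 members, with 9 at an unadjusted p below 0.05 in each case, and without control animal 2 only Acsl1 was. Without PB animal 3 Acot4 and Vnn1 were called, and without PB animal 1 the number rose to 12. Over the 6 leave-outs the change stayed between 1.57 and 2.40 for Acot2, 2.40 and 3.77 for Acot3, and 1.18 and 1.69 for Acot4, with adjusted p up to 0.130, 0.104 and 0.0867 in limma.

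Acot4 was also the thioesterase that rose in hCAR/hPXR mice. It ran from 0.04 through 0.63 to 0.96 in controls and from 1.02 through 1.46 to 1.56 in PB animals, with no overlap, and rose by 0.72 ± 0.14 (adjusted p = 0.000515 in limma). With the slide as a block its change was 0.95, and the adjusted p was 0.0960. Acot1, Acot2 and Acot3 had changes of -0.13, 0.12 and 0.72 there with overlapping groups.

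In CD-1 mice Acot1 was at 3.36, 1.57, 2.35 and 2.37 in controls and 0.49, 1.87, 0.84 and 0.92 in PB animals, a change of -1.38 ± 0.40 just above the threshold (adjusted p = 0.0510 in limma). Control animal 2 and PB animal 2 made the groups overlap. Acot2 and Acot3 had changes of 0.70 ± 0.46 and 0.21 ± 0.28, which with Vnn1 were the 3 of the 32 tested CD-1 changes above 0. Acot4 was well above background on 0 of 4 control and 2 of 4 PB arrays, so it was not tested and no fold is given.

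The C3H change was larger than the CD-1 change for Acot1 (by 2.62 ± 0.71), Acot3 (3.04 ± 0.90) and Acot4 (1.49 ± 0.44), with adjusted p between 0.0145 and 0.0235 in limma, though the CD-1 level of Acot4 was mostly at background. It was larger than the hCAR/hPXR change for Acot2 (1.99 ± 0.56, adjusted p = 0.0248 in limma) and Acot3 (2.52 ± 0.80, adjusted p = 0.0448). These rest on dim C3H controls, with Acot2 and Acot3 well above background on 1 and 2 of 3 arrays. The second Acot3 probe gave -0.21 in CD-1, 1.11 in hCAR/hPXR and 1.63 in C3H mice. In hCAR/hPXR mice it was well above background on 1 of 7 control and 3 of 7 PB arrays.

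**Figure D4:**
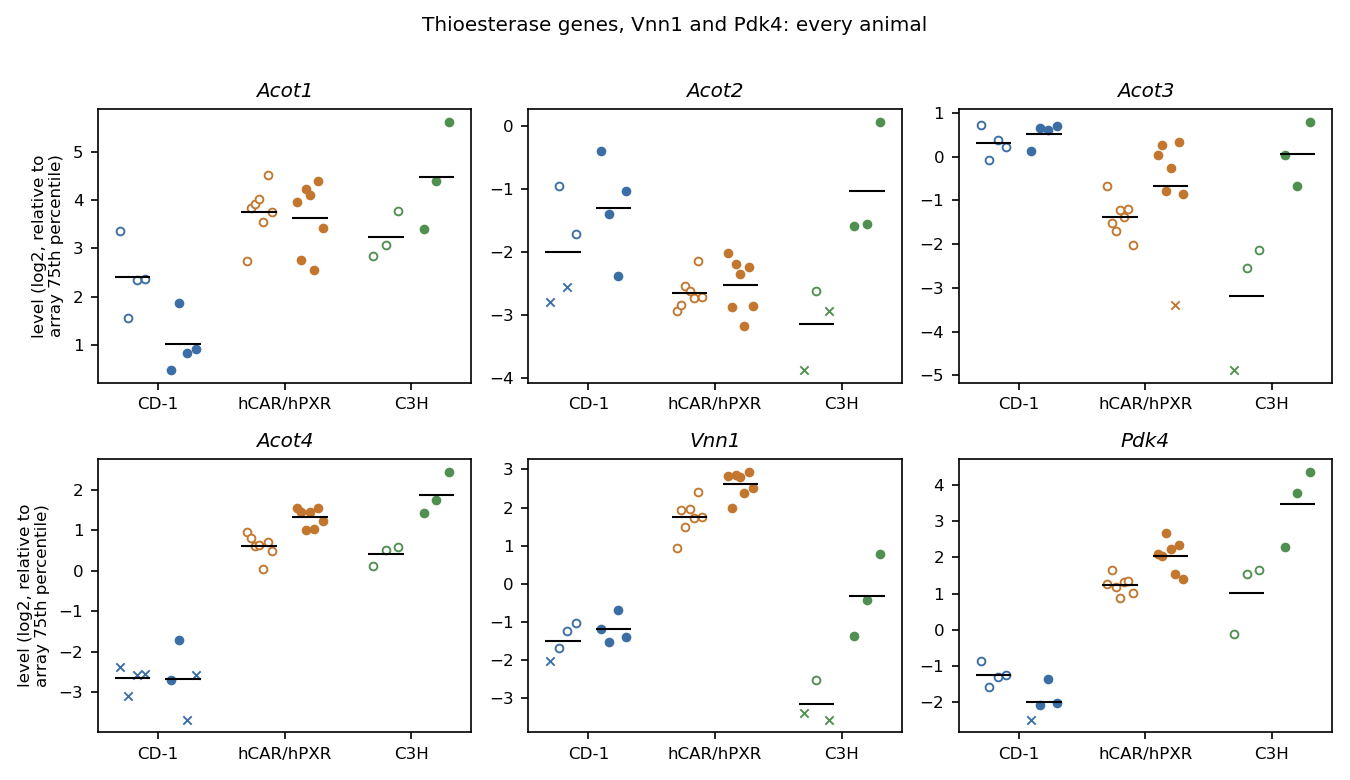
Log2 level in every animal (vertical axis, relative to the array's 75th percentile) for Acot1 to Acot4, Vnn1 and Pdk4, by strain, with open points for controls, filled points for PB animals, crosses for arrays not well above background and bars for group means. The 3 C3H PB animals lie above the 3 controls in 5 of the 6 panels, Acot1 being the exception.

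The stretch before a RefSeq start of each of these 4 neighbouring genes is shown because their C3H changes were all above 0, 3 of the 4 called. Acot2 and Acot3 passed the background filter there through the PB animals alone, so nothing is drawn from the number of calls. Promoters came from RefSeq (GRCm38.p6), which gave 30 promoters for 27 of the 34 genes; Angptl4, Decr1, Cyp4a10, Cyp4a14, Vnn1, Acaa2 and Crat had no entry there. Each window of 300 bases, 250 before and 50 after the start, was searched on both strands for a direct repeat of AGGTCA with 1 base between the copies, the DR1 motif that PPARA and RXR bind, allowing 2 mismatches over the 12 fixed positions. Overlap with other motifs was not considered. Such a match stood in 3.86% of all 32851 promoters, in at least 1 promoter of 4.4% of all 27025 genes and in those of 4 of the 27 genes here: Acot4, Fabp1, Plin2 and Slc25a20. The 200 bases before the start follow, 5′ to 3′ on the plus strand, with matches in capitals.
Acot2, chr12:83987661-83987860: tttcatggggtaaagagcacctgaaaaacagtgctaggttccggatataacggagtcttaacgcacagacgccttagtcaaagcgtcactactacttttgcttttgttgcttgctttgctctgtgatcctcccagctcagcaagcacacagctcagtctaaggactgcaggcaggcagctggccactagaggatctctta
Acot1, chr12:84009302-84009501: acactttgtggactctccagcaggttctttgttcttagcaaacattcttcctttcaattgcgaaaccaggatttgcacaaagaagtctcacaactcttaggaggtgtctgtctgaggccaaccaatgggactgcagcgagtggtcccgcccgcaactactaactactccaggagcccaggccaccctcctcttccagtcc
Acot4, chr12:84038179-84038378: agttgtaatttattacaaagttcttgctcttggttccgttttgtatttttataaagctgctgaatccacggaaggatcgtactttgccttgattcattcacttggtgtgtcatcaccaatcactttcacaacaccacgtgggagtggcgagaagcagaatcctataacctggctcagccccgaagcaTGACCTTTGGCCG
Acot3, chr12:84051944-84052143: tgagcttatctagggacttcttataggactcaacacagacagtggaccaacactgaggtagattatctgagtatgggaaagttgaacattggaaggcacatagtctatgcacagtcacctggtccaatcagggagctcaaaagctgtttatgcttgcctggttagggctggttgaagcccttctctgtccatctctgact
Fabp1, chr6:71199679-71199878: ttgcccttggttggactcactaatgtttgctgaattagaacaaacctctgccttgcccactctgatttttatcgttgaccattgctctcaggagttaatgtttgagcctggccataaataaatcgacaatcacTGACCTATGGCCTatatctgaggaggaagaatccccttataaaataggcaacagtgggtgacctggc
The Acot4 match has 2 mismatches, reads on the opposite strand and ends at the base before the start used. That start lies inside the listed span of Acot4 (84037254 to 84044723), so the bases upstream of the whole gene are not shown. The Fabp1 promoter is shown for the closest match among the members, with 1 mismatch at positions -67 to -55 from the start and on the opposite strand, a closeness found in 0.554% of all promoters. Acot1, Acot2 and Acot3 hold no match at this setting, which says only that these letters are not in this window.

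The last 5 genes bind, activate or store fatty acids or answer to PPARA outside oxidation. Vnn1, the pantetheinase that recycles coenzyme A precursors, on chromosome 10 (23894688 to 23905344), was at -3.37, -2.51 and -3.56 in C3H controls, 1 of 3 of them well above background, and at -1.36, -0.42 and 0.79 in C3H PB animals. All PB animals were above all controls, and the rise was 2.82 ± 0.56 (adjusted p = 0.0264 in limma). Since the control level was mostly at background and only the PB group brought the gene into the test, no fold is given. Over the leave-outs it stayed between 2.26 and 3.33, with the call lost without any 1 of the 3 controls or PB animal 2 (adjusted p up to 0.0983).

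Vnn1 in hCAR/hPXR mice ran from 0.94 through 1.76 to 2.42 in controls and from 1.99 through 2.81 to 2.94 in PB animals, and rose by 0.87 ± 0.20 (adjusted p = 0.00201 in limma) with a small overlap. In CD-1 mice it was at -2.02, -1.69, -1.22 and -1.02 in controls and -1.17, -1.52, -0.69 and -1.39 in PB animals, overlapping, with a change of 0.29 ± 0.31. The C3H change was larger than those of CD-1 (by 2.53 ± 0.54, adjusted p = 0.00248 in limma) and hCAR/hPXR mice (by 1.95 ± 0.48, adjusted p = 0.00976). The SEs of both differences are below that of the C3H change alone (0.56) and may be too small, as for Pdk4.

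Acsl1, the long-chain acyl-CoA synthetase that activates fatty acids, on chromosome 8, went down in C3H mice. It was at 8.77, 8.23 and 8.75 in controls and 7.88, 7.46 and 7.51 in PB animals, every one below every control. The change was -0.97 ± 0.20 (adjusted p = 0.0303 in limma), and the second probe gave -1.08 without overlap. The call was lost without control animals 1 or 3 or PB animals 2 or 3 (adjusted p up to 0.107). In CD-1 mice the change was -1.12 ± 0.37 (adjusted p = 0.0825 in limma) and in hCAR/hPXR mice -0.21 ± 0.20.

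Angptl4, a secreted inhibitor of lipoprotein lipase and a PPARA target, had a change of -1.65 ± 0.56 in CD-1 (no overlap, adjusted p = 0.0863 in limma), fell by 0.72 in hCAR/hPXR (SE 0.26, adjusted p = 0.0295; lost without control animal 5, 6 or 7 or PB animal 1 or 2, with adjusted p up to 0.0574) and had a change of -0.60 ± 0.27 in C3H mice (no overlap, adjusted p = 0.167). It was below 0 in all 3 strains, as were Ppara, Acaa2, Fabp1 and Acsl1. Fabp1, the abundant fatty acid binding protein of hepatocytes, had changes of -0.74 in CD-1, -0.03 in hCAR/hPXR and -0.42 in C3H mice. Plin2, a coat protein of lipid droplets, had changes of -0.90, -0.01 and 0.43 in the same order. Neither was called.

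The difference between strains was tested for all 34 genes in 1 fit of the 28 arrays. That fit shares 1 spread per gene across the strains. For hCAR/hPXR minus CD-1 the SE of some differences was below that of the CD-1 change alone (Acadvl 0.26 and 0.33, Acadm 0.20 and 0.27). For others it was above (Acot1 0.58 and 0.40). Where CD-1 animals varied more than the rest, the SE against CD-1 is too small, so the counts against CD-1 may be too high. For Pdk4 and Vnn1 the SE of C3H minus hCAR/hPXR (0.51 and 0.48) was below that of the C3H change alone (0.67 and 0.56). The adjusted p of these differences may be too small. The hCAR/hPXR change was above the CD-1 change for 15 genes and below it for 0 (28.6% of 27096 genes differed in either direction). The C3H change was above the CD-1 change for 14 and below it for 0 (15% of 26553 genes), and differed from the hCAR/hPXR change for 5, Pdk4, Acot2, Acot3 and Vnn1 above it and Acads below it (9.57% of 20564 genes). The first 2 comparisons share the CD-1 arrays, and their slides cannot be told apart from PB. Between 11 and 24 members differed in the first comparison when 1 animal was left out, between 4 and 19 in the second and between 0 and 5 in the third. Without CD-1 control animal 2 the first count was 24. Without C3H control animal 1 or PB animal 3 the second was 7 or 4 and the third 1 or 0.

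Other genes of the pathway, a list of 93, gave the surroundings. In CD-1 mice 10 of 78 tested fell and 0 rose, against 6.13% and 1.85% of all tested genes. Those with the smallest p included Plin4 (a droplet protein, -1.88 ± 0.28), Acadsb (a branched-chain dehydrogenase, -1.38 ± 0.26), Plin5 (a droplet protein, -1.63 ± 0.34) and the receptor gene Ppard (-1.46 ± 0.33). Their adjusted p lay between 0.00154 and 0.0190 in limma, and the groups did not overlap. In hCAR/hPXR mice 29 of 89 rose and 17 fell, against 35% and 23.2% of all tested genes, so neither count exceeded the background. Those with the smallest p included Acox3 (a peroxisomal oxidase, -1.40 ± 0.15), Cd36 (a fatty acid uptake protein, 1.08 ± 0.13), Slc27a4 (-0.91 ± 0.12), Nudt19 (0.58 ± 0.08) and Acot13 (0.52 ± 0.07).

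In C3H mice 5 of 89 rose and 10 fell, against 7.38% and 7.3% of all tested genes. Retsat (-1.42 ± 0.14), Acadsb (-0.80 ± 0.13), the ketone enzyme Acat1 (-0.66 ± 0.13) and Scp2 (-0.77 ± 0.15) fell, while the carnitine transporter Slc22a5 (1.08 ± 0.20) and Cd36 (1.38 ± 0.26) rose. Retsat, a retinol saturase, was called lower in all 3 strains, and fell by 1.48 in CD-1 and by 0.47 in hCAR/hPXR mice. It was followed across strains after its values were seen.

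Markers of cell types were read beside these results. In CD-1 mice 12 of 12 hepatocyte markers had changes below 0, 2 of them called lower (6.13% of all tested genes), with a median of -0.71 against -0.89 for the members. Their summed linear level ran from 7533 to 13446 in controls and from 5079 to 9361 in PB animals. In C3H mice 12 of 12 were below 0 and 5 were called lower (7.3% of all tested genes), with summed levels of 15862 to 17827 and 10613 to 13381. In hCAR/hPXR mice 2 of 12 were higher and 0 lower, and 6 of 9 Kupffer cell markers were higher, against 35% of all tested genes (summed levels of 135 to 181 and 146 to 291). The part of these shifts in the members' changes was not tested, and in whole liver fewer cells of a type and less RNA per cell cannot be told apart. The summed level of 6 adipocyte markers was 5.40 to 7.43 in C3H controls and 10.2 to 25.3 in C3H PB animals, but Adipoq, Lep, Plin1 and Retn were well above background on no C3H array. The adipocyte sum in hCAR/hPXR mice was 4.84 to 6.87 in controls and 10.8 to 12.7 in PB animals. Other sums did not overlap between the C3H groups either. That of 5 exocrine pancreas markers was 8.50 to 10.68 in C3H controls and 11.3 to 26.5 in PB animals, with Cpa1, Pnlip and Prss1 well above background on no array. The sums of lymphocyte (53.9 to 72.7 and 20.6 to 42.1), endothelial (135 to 148 and 82.0 to 117) and red blood cell markers (271 to 364 and 202 to 248) were lower in the PB animals. Lymphocyte sums were also apart in hCAR/hPXR mice (38.0 to 56.4 and 19.3 to 29.3). The part of these markers in the members' changes was not tested.

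The level in controls was lowest in CD-1 mice for most members. For 25 of 34 genes every CD-1 control was below every control of both other strains, as for 41.4% of the 23033 genes well above background on every control array of at least 1 strain. For 16 genes the 3 control groups did not overlap at all, against 33.4% of those genes. Cpt1a was at 1.05 ± 0.47 (SD) in CD-1, 4.71 ± 0.24 in hCAR/hPXR and 5.28 ± 0.04 in C3H controls, and Acadm at 3.34 ± 0.15, 6.23 ± 0.21 and 7.03 ± 0.08. The order was otherwise for some genes: Cyp4a14 was highest in hCAR/hPXR (5.55 ± 0.58) and lowest in C3H controls (-1.24 ± 0.69), with CD-1 in between and overlapping C3H. Acot3 stood in the descending order CD-1 (0.32 ± 0.33), hCAR/hPXR (-1.39 ± 0.43), C3H (-3.19 ± 1.48), without overlap. Control groups lay on separate slides of separate experiments, and the CD-1 arrays had the narrower range given above, so these levels are a description. The part of that range in the order was not tested.

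**Figure D5:**
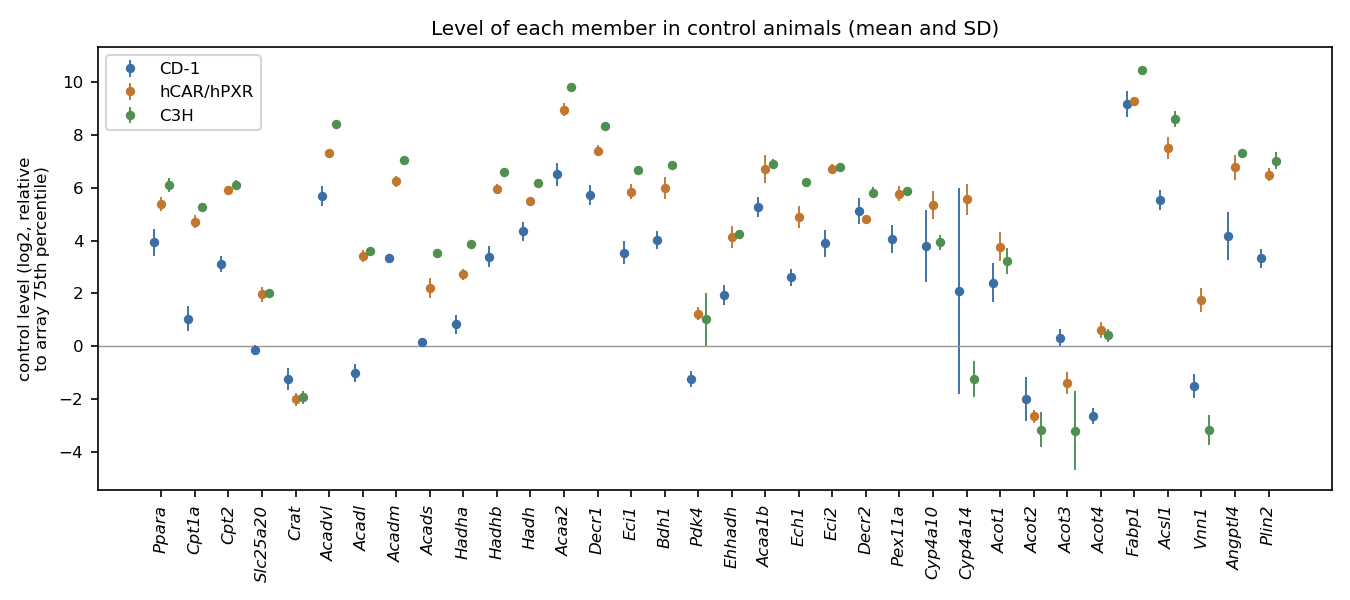
Log2 level in control animals (vertical axis, relative to the array's 75th percentile, mean and SD) of each gene in CD-1 (n = 4), hCAR/hPXR (n = 7) and C3H mice (n = 3). The CD-1 mean is the lowest for 28 of 34 genes and the C3H mean the highest for 25. Probes differ in brightness, so genes are compared between strains and not with each other.

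The shift was also set against the level of a gene. All tested CD-1 genes were ranked by their mean over both groups and cut into 4 classes of 5956 genes, and those of the other strains likewise. In the brightest class the median change was -0.22, and 68.9% of changes were below 0. The 22 members in that class had a median of -0.90. In the dimmest class the median was 0.15 for all genes and -0.74 for the 5 members there. Each of these 5 passed the background filter through only 1 group. Acadl, Crat and Pdk4, with changes below 0, passed through the controls. Acot2 and Vnn1, with changes above 0, passed through the PB animals. The signs thus go with the filter, and nothing about dim genes is drawn from that median. In hCAR/hPXR mice the 25 members in the brightest class had a median of -0.0069 where all genes of that class had 0.26, and in C3H mice the 25 members there had -0.064 against -0.024.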

How the data were processed

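Per the file headers, the deposited scanner files hold intensity values from Agilent Feature Extraction 10.7.3.1, background-subtracted within each array, with a 0 or 1 mark for spots well above background. The deposited value table holds log2 values, which equalled the log2 processed signal minus a constant for each array. Per the labels, 28 livers were measured in 6 groups, each animal being called a biological replicate. Here outlier spots were left out, spots of a probe averaged, and each array scaled on the log2 scale by subtracting its own 75th percentile over 55681 probes that are not controls. Probes were named through RefSeq accessions (GRCm38.p6), and the probe with the highest mean stood for a gene. A gene was tested when well above background on every array of at least 1 group compared. limma 3.58.1 in R 4.3.3 (lmFit, eBayes, two-sided) was fitted within each strain, and over all 28 arrays for differences between strains. The number of arrays limits the precision.

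The members and lists were chosen with earlier results of these data known. All 34 members are given by group, values by animal for those called with a change of at least 1 and for Ppara, Cpt1a, Bdh1, Pdk4, Cyp4a10 and Cyp4a14, and up to 6 called pathway genes per strain by the smallest p. Some pathway genes that this rule names are not reported here. Others shown by animal (Acot1, Acsl1, Eci2, Hadh) were chosen after their values were seen. The alternatives were other normalizations, background corrections, filters, probe rules, weights, fits and blocks, and leaving out each animal.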

Additional observations from a re-analysis of the deposited data

Results flagged for a closer look

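The PB effect differed between strains for these members, by the test of the difference itself in limma; values are differences of the log2 change. The hCAR/hPXR change exceeded the CD-1 change for Ppara (1.44), Cpt1a (0.96), Crat (1.50), Acadvl (1.26), Acadm (1.04), Acads (0.91), Hadha (1.26), Hadhb (0.69), Acaa2 (0.83), Decr1 (1.21), Pdk4 (1.55), Ehhadh (1.33), Ech1 (1.21), Decr2 (1.33) and Plin2 (0.90). The C3H change exceeded the CD-1 change for Ppara (1.61), Cpt1a (1.48), Acadvl (0.99), Acadm (0.83), Bdh1 (1.31), Pdk4 (3.18), Ehhadh (1.52), Cyp4a10 (2.34), Cyp4a14 (5.82), Acot1 (2.62), Acot3 (3.04), Acot4 (1.49), Vnn1 (2.53) and Plin2 (1.34). Compared with hCAR/hPXR mice, the C3H change was lower for Acads (-0.84) and higher for Pdk4 (1.64), Acot2 (1.99), Acot3 (2.52) and Vnn1 (1.95). Some of these values rest on dim probes: Crat was well above background on 1 of 4 CD-1 PB arrays, Acot4 on 0 of 4 control and 2 of 4 PB arrays in CD-1 mice, and Acot2, Acot3 and Vnn1 on 1, 2 and 1 of 3 C3H control arrays. Cyp4a14 was well above background on 3 of 4 control and 3 of 4 PB arrays in CD-1 mice. Its CD-1 change was not tested alone and includes control animal 2 at -3.73. The test shares 1 spread per gene across strains, so the SE of a difference against CD-1 may be too small. For Pdk4 and Vnn1, whose C3H changes had the larger SE, this holds for C3H minus hCAR/hPXR too. The second Cpt1a probe gave -0.12 in both CD-1 and hCAR/hPXR mice and 0.19 in C3H mice, so the Cpt1a differences rest on the main probe. Dose, duration, carcinogen and slide differ with the strain and cannot be told apart.

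Single animals stood apart from the rest of their group in 16 of the 136 gene and group pairs tested with Dixon's ratio, where chance gives about 1 in 20, or 6.8. In CD-1 mice PB animal 1 was lowest for Ppara (1.31), Eci2 (2.11) and Acot3 (0.12), and control animal 2 for Cyp4a14 (-3.73). In hCAR/hPXR controls animal 1 was lowest for Bdh1 (5.09), Ehhadh (3.25), Acaa1b (5.62) and Angptl4 (5.82), animal 4 was lowest for Plin2 (5.96), and animal 6 was highest for Cyp4a14 (6.77). In hCAR/hPXR PB animals, animal 1 was lowest for Acadl (2.36), animal 2 for Hadhb (5.73) and Bdh1 (5.64), and animal 5 for Eci1 (5.27) and Acot3 (-3.40), while animal 4 was highest for Pex11a (6.05). Groups of 3 were not examined this way.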

How the results depend on the processing

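Few members were called in CD-1 and C3H mice, and the number moved with the processing. In CD-1 mice it was 2, and 11 with normexp and quantile normalization, 12 when a gene had to be above background in both groups, 1 with no filter, 12 with array weights, 21 with all 28 arrays in the fit and 19 at an unadjusted p below 0.05 (added after seeing the data). All of these were lower. Of all tested CD-1 genes 7.98% were called, against 16%, 9.82%, 3.48%, 19.3%, 26% and 27.1% under these settings in the same order. In hCAR/hPXR mice it was 10 (8 higher, 2 lower), and 12 with quantile normalization (5 higher, 7 lower), 15 with normexp and quantile normalization (5 higher, 10 lower), 6 with no filter, 6 with all 28 arrays and 1 with the slide as a block. The shares of all genes were 58.1%, and 51.5%, 51.5%, 30.8%, 41.7% and 2.19%. In C3H mice it was 5, and 8 with quantile normalization, 9 with normexp, 3 with the filter on both groups, 0 in limma with no filter (12 at an unadjusted p below 0.05), 19 with array weights and 13 at an unadjusted p below 0.05. The shares of all genes were 14.7%, and 14.6%, 16.1%, 14.4%, 1.64%, 47.4% and 35.4%. The C3H minus hCAR/hPXR difference held for 5 members, and for 0 with quantile normalization (10 unadjusted, in limma), 2 with the filter on both groups, 1 with no filter, 18 with array weights and 0 with the slide as a block (4 unadjusted). The shares of all genes were 9.57%, and 4.03%, 8.48%, 3.59%, 45.2% and 1.43%. The median change moved to -0.11 and -0.15 in hCAR/hPXR and to 0.096 and 0.091 in C3H mice with quantile normalization, without and with normexp. Cpt2 (-0.31) and Hadhb (-0.25) turned to called falls in hCAR/hPXR mice with normexp and quantile normalization. The cause of these shifts was not tested.

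Replicate numbers were not taken to pair the animals, since deviations of same-numbered animals correlated at -0.45 to 0.06 in CD-1, -0.13 to 0.27 in hCAR/hPXR and 0.04 to 0.18 in C3H mice. With the replicate number as a block, 1 member was called in CD-1, 12 in hCAR/hPXR and 3 in C3H mice, and the differences numbered 12, 8 and 4. Every animal of the C3H groups correlated best with its own number (3 of 3), against 0 of 4 in CD-1 and 1 of 7 in hCAR/hPXR mice.

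With 1 animal left out, the called members numbered 1 to 7 in CD-1, 8 to 12 in hCAR/hPXR and 0 to 12 in C3H mice. The differences numbered 11 to 24 (hCAR/hPXR minus CD-1), 4 to 19 (C3H minus CD-1) and 0 to 5 (C3H minus hCAR/hPXR). The median change ran from -1.07 to -0.61, 0.037 to 0.18 and -0.078 to 0.17 in the CD-1, hCAR/hPXR and C3H groups. Without CD-1 control animal 2 the CD-1 count was 7.

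Small groups limit the C3H and CD-1 comparisons, and dim probes limit Acot2, Acot3 and Vnn1 in C3H mice and Acot2, Acot4, Acadl, Crat, Cyp4a14, Pdk4 and Vnn1 in CD-1 mice.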

Other observations

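Some animals sat at the edge of their group for most of the 34 genes. CD-1 control animal 2 was the lowest control for 30 of 34, and CD-1 PB animal 1 the lowest PB animal for 28 of 34. The median of the members minus the control mean was -1.67 in CD-1 PB animal 1 and -0.52, -0.45 and -0.84 in PB animals 2 to 4. In C3H mice PB animal 3 was the highest PB animal for 25 of 34 members, with a median of 0.40 above the control mean, against -0.06 and -0.09 in PB animals 1 and 2, and control animal 3 was the highest control for 24. In hCAR/hPXR controls animal 1 was the lowest for 22 and animal 6 the highest for 21.

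Of the 34 genes 14 had a change below 0 in CD-1 and above 0 in C3H mice, none the reverse, 5 were below 0 in all strains and 3 above 0 in all. Among the 8 members with several probes, the probes lay on both sides of 0 in 4 of 24 combinations of gene and strain.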
